A study of Mus musculus with 4 samples.

Results

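The surgery by drug interaction of promoter acetylation asks, for each promoter, whether trichostatin A (TSA) goes with another difference in histone H3 acetylation in the pressure-overloaded ventricle than in the sham-operated one. It was taken as the log2 ratio of TAC TSA over TAC Veh minus the log2 ratio of Sham TSA over Sham Veh, on scaled read counts. A positive value means that the TSA ratio was higher in TAC, and a negative value that it was lower in TAC. Of the 31594 RefSeq IDs in the count table, 27973 had a mean raw count of at least 30 over the 4 libraries, and 27587 of these matched a gene symbol. They gave 20364 genes out of 23627, each represented by its promoter with the highest mean count. All 4 groups came from the left ventricle of 10- to 12-week-old C57BL6 males, after transverse aortic constriction (TAC), which narrows the aorta and overloads the ventricle with pressure, or after a sham operation. TSA at 0.6 mg per kg per day, or its solvent DMSO (vehicle, Veh), was injected 2 times a day for 4 weeks, and chromatin was precipitated with an antibody to acetylated histone H3. The resulting groups, TAC TSA, TAC Veh, Sham TSA and Sham Veh, have 1 library each, so no value has a replicate and no test between conditions was possible. The labels of the sham libraries, and not of the TAC libraries, point to an earlier deposit. Each TSA ratio compares libraries of the same surgery, but whether libraries of different surgeries were prepared side by side is not stated. In whole ventricle, fewer cells of a type and less acetylation per cell cannot be told apart.

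Acetyl groups on the tails of histone H3 loosen chromatin and mark the promoters of active genes. Histone acetyltransferases add them and histone deacetylases (HDACs) remove them. TSA blocks the zinc-dependent HDACs, and in rodent hearts such inhibitors are known for limiting hypertrophy and fibrosis after overload. Overload itself is known for lowering the expression of adult contractile and metabolic genes and for drawing macrophages and activated fibroblasts into the ventricle.

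Promoters of 3 muscle genes with positive interaction values and of 2 genes with negative ones are shown first, as examples of promoters with the motifs marked below. The sequences are from RefSeq for the GRCm38.p6 build and run from 250 bases before to 50 bases after the gene start, 5′ to 3′ on the gene's strand. The deposited counts carry no coordinates, so the window in which the authors counted reads may be another one. Capitals mark matches, on either strand, to the TATA box (TATAAA), the TEAD motif (CATTCC), the CArG box, the MEF2 site, the GATA motif (AGATAA), the PU.1 motif (GAGGAAG) and the interferon-stimulated response element (ISRE).
Myh6, chr14:54966558-54966857 (-): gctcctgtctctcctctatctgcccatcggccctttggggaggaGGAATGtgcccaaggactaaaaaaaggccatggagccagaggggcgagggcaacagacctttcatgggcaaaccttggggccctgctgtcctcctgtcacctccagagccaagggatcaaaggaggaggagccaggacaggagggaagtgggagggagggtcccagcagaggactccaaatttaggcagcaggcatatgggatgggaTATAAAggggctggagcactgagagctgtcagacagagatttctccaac
Actc1, chr2:114052826-114053125 (-): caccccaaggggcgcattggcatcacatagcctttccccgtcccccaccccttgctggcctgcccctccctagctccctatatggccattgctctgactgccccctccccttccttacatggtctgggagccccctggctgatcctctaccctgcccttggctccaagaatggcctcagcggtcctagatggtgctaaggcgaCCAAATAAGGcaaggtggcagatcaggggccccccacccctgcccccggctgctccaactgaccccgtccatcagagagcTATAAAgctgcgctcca
Pgam2, chr11:5803747-5804046 (-): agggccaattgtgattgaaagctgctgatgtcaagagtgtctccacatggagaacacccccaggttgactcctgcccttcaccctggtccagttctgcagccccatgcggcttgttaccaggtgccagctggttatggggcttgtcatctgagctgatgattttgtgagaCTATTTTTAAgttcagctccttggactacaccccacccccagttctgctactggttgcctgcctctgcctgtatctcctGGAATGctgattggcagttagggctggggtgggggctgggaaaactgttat
F630028O10Rik, chrX:96239676-96239975 (+): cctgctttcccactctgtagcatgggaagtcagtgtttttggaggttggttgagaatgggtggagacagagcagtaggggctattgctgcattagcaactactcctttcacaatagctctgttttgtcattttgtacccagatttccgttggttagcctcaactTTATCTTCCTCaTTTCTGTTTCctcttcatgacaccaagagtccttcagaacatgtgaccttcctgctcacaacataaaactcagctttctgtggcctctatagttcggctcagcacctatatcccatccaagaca
Ctss, chr3:95526536-95526835 (+): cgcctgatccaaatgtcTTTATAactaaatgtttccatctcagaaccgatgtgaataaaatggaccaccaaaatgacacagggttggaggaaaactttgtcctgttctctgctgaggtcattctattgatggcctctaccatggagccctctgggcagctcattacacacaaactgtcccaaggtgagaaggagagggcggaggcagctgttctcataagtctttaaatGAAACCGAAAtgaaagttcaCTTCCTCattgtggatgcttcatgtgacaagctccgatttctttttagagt
In the muscle promoters the capitals are a TEAD motif and a TATA box in Myh6, a CArG box and a TATA box in Actc1, and a MEF2 site and a TEAD motif in Pgam2. In F630028O10Rik, a noncoding gene that contains the microRNA gene Mir223, a GATA motif overlaps a PU.1 motif and an ISRE follows. Ctss, which encodes the lysosomal protease cathepsin S of macrophages, has a TATA box, an ISRE and a PU.1 motif. A match is a description of the letters and not a binding site. These 5 promoters do not stand for their classes. No marked motif was found in the promoters of Ryr2 and Nkx2-5, which had positive values. The same held for C1qb, Ms4a6c and Serpina3n, which had negative ones.

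A pair of microRNA genes was also among the 15 promoters called lower whose intervals lay farthest from 0. Their mature sequences are given from RefSeq with the seed, bases 2 to 8, in capitals.
mmu-miR-21a-5p: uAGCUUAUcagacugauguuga
mmu-miR-223-3p: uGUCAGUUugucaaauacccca
The seeds differ from each other. miR-21 is known as an inducible microRNA of stressed and fibrotic hearts, and miR-223 is a microRNA of myeloid cells.

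Promoter counts summed to between 6842296 (TAC TSA) and 9905553 (Sham TSA) per library, and the median over tested genes ranged from 217 to 314 counts. The lowest count of a tested gene in any library was 16, and the median standard error of an interaction value from counting alone was 0.17. Scaling used TMM, a trimmed mean over promoters, so every value is relative to the bulk of promoters. Promoters of 1457 olfactory and vomeronasal receptor genes, known from sensory neurons, held 0.678% of the TAC TSA counts, 0.506% of those of TAC Veh, 0.427% of Sham TSA and 0.421% of Sham Veh. Scaling on these receptor promoters instead lowers every interaction value by the same amount and moves the median of all genes from −0.00 to −0.37. Intervals given below are 95% intervals for the counting error of 4 counts, and they count each PCR read as its own molecule, since there were no molecular identifiers.

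TSA ratios in sham and in TAC were nearly unrelated across genes. Over 20364 genes their Pearson correlation was −0.04 and their Spearman correlation −0.05, and over the 10189 genes at or above the median mean count of 280 these were 0.05 and 0.01. These are descriptions across promoters of the same libraries, and counting error weakens them. The TSA ratio varied more in TAC (SD 0.26 over genes) than in sham (SD 0.19). Over the genes at or above the median count the SDs were 0.16 and 0.11. TAC TSA had the fewest reads, so counting error was larger in the TAC ratio, and its part was not tested. The middle 90% of interaction values lay between −0.41 and 0.66. A promoter was called higher or lower when its ratio of ratios was at least 1.5-fold and the interval excluded 1. By the same rule 743 genes were apart and higher with TSA in TAC (3.65%) and 65 lower (0.319%), against 96 (0.471%) and 106 (0.521%) in sham. Between surgeries, 294 were higher in TAC with vehicle (1.44%) and 115 lower (0.565%), and 1162 were higher with TSA (5.71%) and 39 lower (0.192%). For the interaction 900 genes were called higher, 4.42% of those tested, and 244 were called lower, 1.2%.

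**Figure D1:**
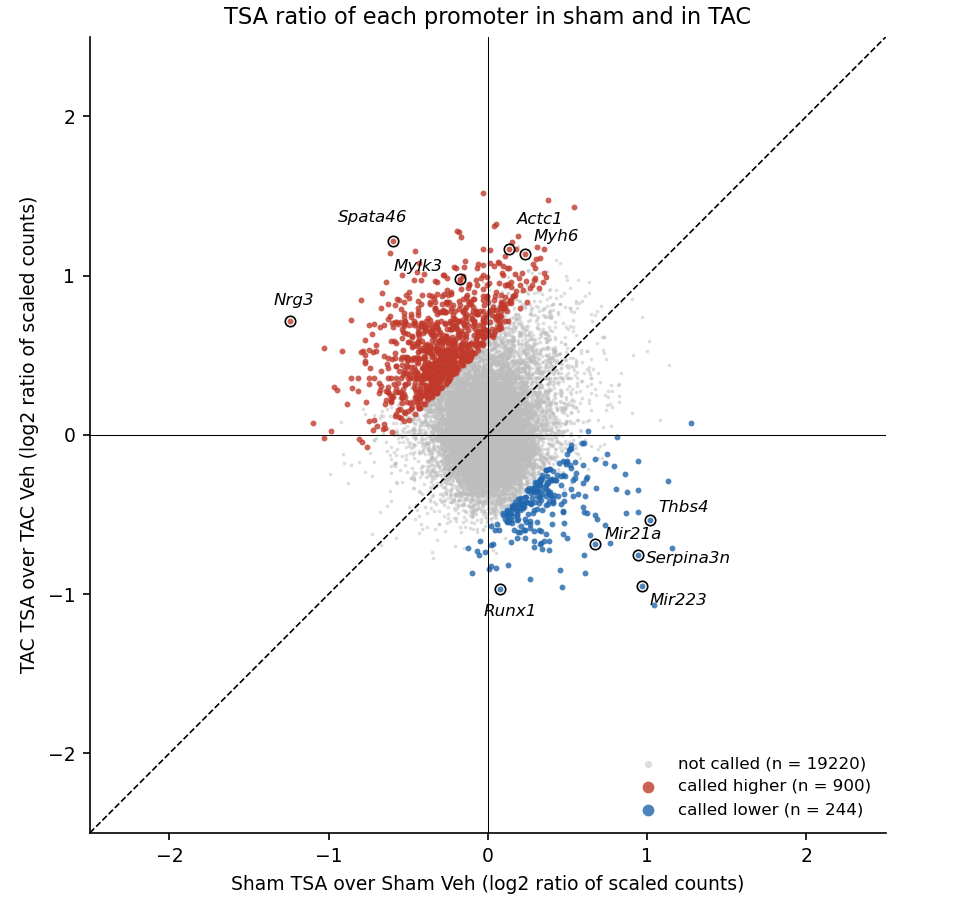
Log2 ratio of scaled counts of Sham TSA over Sham Veh (horizontal) and of TAC TSA over TAC Veh (vertical) for 20364 promoters, 1 point per gene. Points on the dashed line have equal TSA ratios in both surgeries; the 900 genes called higher lie above it and the 244 called lower lie under it.

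The excess of higher over lower calls belonged to promoters with few reads. Among the 10189 genes at or above the median count, 46 (0.451%) were called higher and 44 (0.432%) lower. Among the 10175 genes under it, 854 (8.39%) were called higher and 200 (1.97%) lower. The median interaction was 0.31 in the weakest of 10 equal classes by count (mean counts 30 to 55.5) and −0.06 in the strongest. The median TSA ratio in TAC was 0.29 in the weakest class and −0.05 in the strongest, whereas in sham it was −0.00 and 0.01. Loess scaling, which removes such a trend with the count, gave 374 genes higher (1.84%) and 454 lower (2.23%), and receptor scaling gave 99 higher (0.486%) and 3508 lower (17.2%). The larger share of counts at receptor promoters in the TAC TSA library moves with this trend, and 24 of 237 tested receptor promoters were themselves called higher and 4 lower. Its part in the calls at weak promoters was not tested. Subtracting each library's mean receptor count left 743 higher and 326 lower. The genes with more reads, and calls that hold with loess scaling, therefore carry the description that follows.

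**Figure D2:**
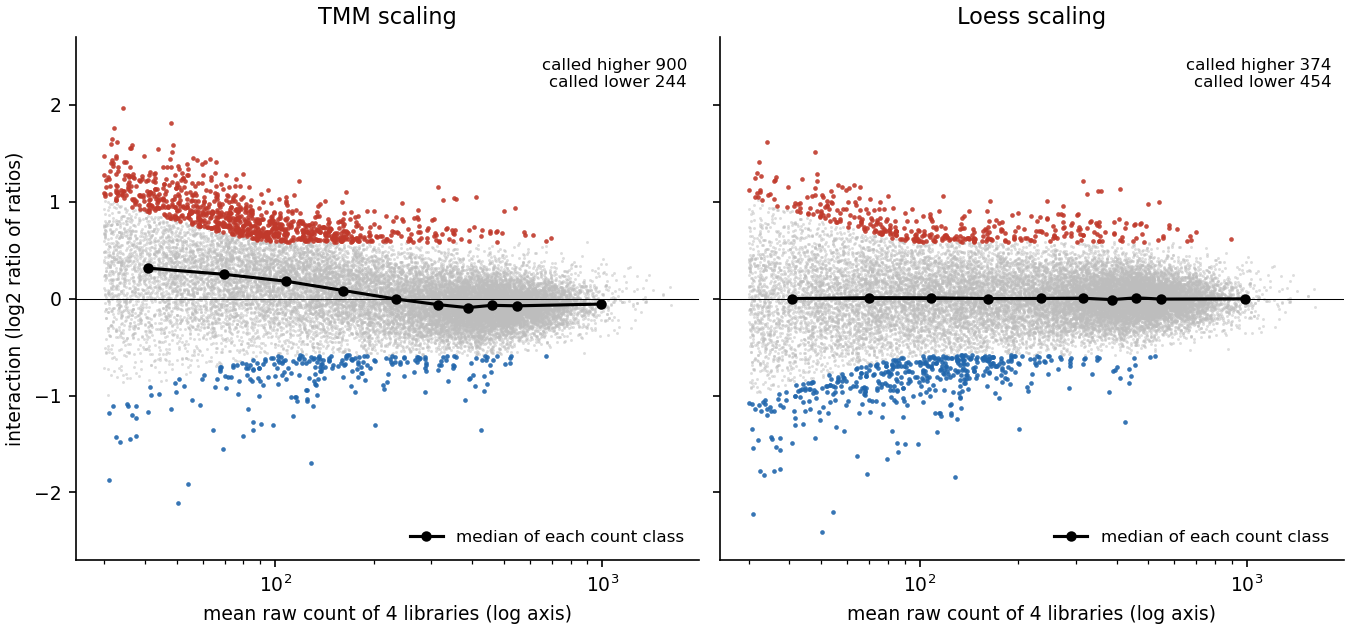
Interaction (log2 ratio of ratios, vertical) against the mean raw count of the 4 libraries (horizontal, log axis), with TMM scaling on the left and loess scaling on the right; red points are called higher, blue points lower and black points are medians of 10 equal classes of genes by count. With TMM scaling the medians descend from 0.31 to values just under 0, and with loess scaling they lie at 0.

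Strong promoters called higher included many genes of heart muscle. Myh6, the adult alpha myosin heavy chain, had 505 scaled counts in the Sham Veh library, 593 with TSA in sham, 283 in the TAC Veh library and 623 with TSA in TAC. The TAC Veh library was the low one, and the TAC TSA library was slightly above both sham libraries. The TSA ratio was 2.20-fold in TAC and 1.18-fold in sham, an interaction of 0.90 (0.64 to 1.17). Cardiac actin, Actc1, had 361, 395, 201 and 451 scaled counts in that order of libraries, which is kept for every set of 4 counts below, with the same low library and an interaction of 1.04 (0.72 to 1.35). Mylk3, the kinase that phosphorylates cardiac myosin light chain, had the largest interaction of the strong promoters at 1.15 (0.82 to 1.48), with 363, 322, 193 and 381 scaled counts. With loess scaling these values were 0.98, 1.11 and 1.22. With receptor scaling they were 0.53, 0.67 and 0.78, and Myh6 then no longer passed the rule.

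The adult sarcomere list had 6 of 24 members called higher and none lower, and 23 of 24 values above 0. Over all genes tested 4.42% were called higher and 1.2% lower, the shares beside which this and the later list counts stand. These shares differ with the count. They were 0.451% and 0.432% at or above the median count, where 17 of the 24 sarcomere promoters lay, and 8.39% and 1.97% under it. With loess scaling 8 sarcomere genes were called higher, and with receptor scaling 2. The list's median interaction was 0.43 against −0.00 over all genes tested, 0.49 with loess scaling, and 0.06 against −0.37 with receptor scaling. The other called members were the Z-disc proteins Myoz2 at 0.91 (0.49 to 1.32), Actn2 at 0.80 (0.42 to 1.18) and Tcap at 0.67 (0.37 to 0.98). Several of the best known sarcomere promoters had positive values that missed 1.5-fold: Tnnt2, troponin T, was at 0.47 (0.20 to 0.75) and titin, Ttn, at 0.42 (0.07 to 0.76). The list was therefore uneven, since Tnnt2 had 460, 534, 303 and 489 scaled counts, and Mybpc3, myosin binding protein C, had 307, 426, 304 and 494. Mybpc3 was higher with TSA in both surgeries, and its interaction was 0.23 (−0.06 to 0.53). The ventricular cardiomyocyte markers, 7 of which are also sarcomere genes, had a median of 0.50, with 4 of 10 called higher (Myh6, Actc1, Ryr2 and Nkx2-5) and all 10 above 0. With receptor scaling their median was 0.13, and Actc1 alone was called. Their summed scaled counts were 3772, 4404, 2558 and 4425.

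Of the ion channels and connexins of the cardiomyocyte membrane 5 of 23 were called higher and none lower. The list median was 0.36, 0.25 with loess scaling and −0.01 with receptor scaling, which called 1 higher and 2 lower. Kcnj11, the pore of the ATP-sensitive potassium channel, had 363, 352, 245 and 485 scaled counts. TAC TSA was the high library and TAC Veh the low one, with an interaction of 1.03 (0.72 to 1.33). The pacemaker channel Hcn4 was at 0.85 (0.42 to 1.28), and the potassium channels Kcnj3, Kcnk3 and Kcnd2 at 0.89, 0.63 and 0.64, of which Kcnd2 was not called with loess scaling. Kcnj3 was also higher with TSA in sham, with 160, 232, 78.4 and 212 scaled counts.

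Of 17 calcium handling genes 2 were called higher and none lower. Ryr2, the calcium release channel of the sarcoplasmic reticulum, was at 0.72 (0.35 to 1.08), and Cacna1c, the L-type calcium channel, at 0.71 (0.39 to 1.02). Both were lowest in TAC Veh, where Ryr2 had 168 scaled counts against 272 in Sham Veh, 286 in Sham TSA and 291 in TAC TSA. The calcium pump Atp2a2 had 708, 722, 631 and 727 scaled counts and an interaction of 0.18 (−0.04 to 0.39). Its inhibitor phospholamban, Pln, was at 0.28 (−0.03 to 0.58), with a TSA ratio of 1.55-fold in TAC and 1.28-fold in sham. The list median was 0.19 (−0.18 with receptor scaling, which called none higher and 1 lower).

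Among cardiac transcription factors 5 of 25 were called higher and none lower, with a median of 0.18 (0.20 with loess and −0.19 with receptor scaling). With receptor scaling none was called higher and 2 were called lower. Myocd, the coactivator of serum response factor, had 286, 281, 178 and 313 scaled counts and an interaction of 0.84 (0.48 to 1.19). Tbx5, a T-box factor of atria and left ventricle, had 301, 355, 173 and 337, an interaction of 0.73 (0.38 to 1.07). Nkx2-5, the cardiac homeobox factor, was at 0.59 (0.27 to 0.92). All 3 were lowest in TAC Veh and close to the sham level in TAC TSA. Mef2b (0.77, 0.22 to 1.31) and Mef2c (0.96, 0.07 to 1.85) were instead lowest in Sham TSA. The Mef2c promoter held only 41.0 reads on average, and its call was lost with loess scaling and with an exact interval.

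The energy metabolism lists had medians near that of all genes. For fatty acid uptake and oxidation the median was 0.05, and 3 of 33 genes were called higher. These were Fabp3, the cytosolic fatty acid carrier of muscle, at 0.66 (0.42 to 0.90), Ppara, the fatty acid sensing nuclear receptor, at 0.70 (0.42 to 0.98), and Ucp3, a mitochondrial uncoupling protein, at 0.91 (0.56 to 1.27). Fabp3 had 570, 620, 420 and 719 scaled counts and Ppara 447, 477, 287 and 499, with TAC Veh the low library for both. In glycolysis the muscle phosphoglycerate mutase Pgam2 was called higher at 0.73 (0.41 to 1.04), alone among 21 genes. Cox8b, a muscle subunit of cytochrome c oxidase, was alone among 27 respiratory chain genes at 0.81 (0.47 to 1.14). These single calls stand beside 4.42% over all genes and 0.451% of genes at or above the median count. Of the 2 lists, 20 of 21 and 27 of 27 promoters were at or above it. A single call is no result about a list, and the medians were 0.00 for glycolysis and 0.04 for the respiratory chain. Myoglobin, Mb, an oxygen store of muscle, was at 0.71 (0.42 to 1.00). With receptor scaling none of Fabp3, Ppara, Ucp3, Pgam2, Cox8b and Mb was called, and the fatty acid list had a median of −0.32.

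Of the ubiquitin ligase and autophagy genes 3 of 25 were called higher, all of them muscle ligases or ligase subunits. Asb2, a substrate subunit of a cullin ligase that degrades filamins, had 450, 427, 258 and 506 scaled counts and an interaction of 1.05 (0.76 to 1.34). Trim63, the muscle ligase MuRF1, was at 0.74 (0.34 to 1.14), and Asb18 at 0.82 (0.22 to 1.42). General autophagy genes on the list were not called, and the list median was 0.12 (−0.25 with receptor scaling).

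**Figure D3:**
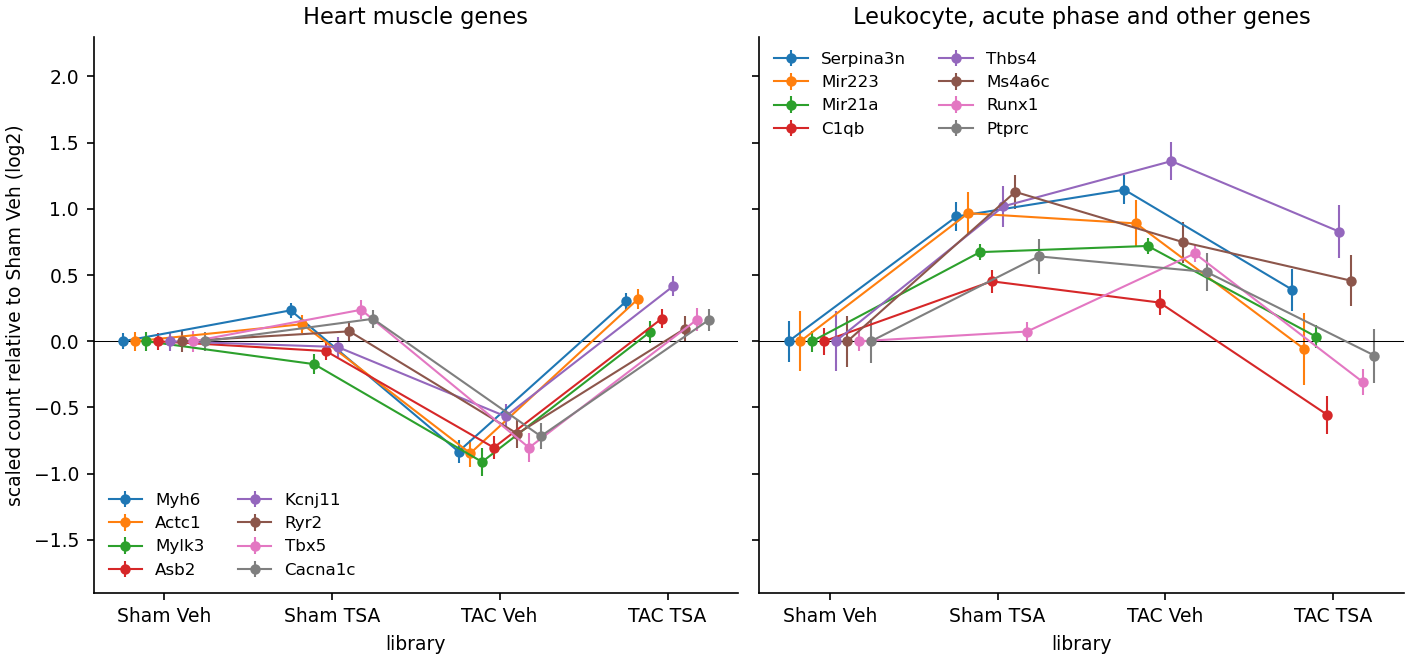
Scaled count of 8 muscle promoters (left) and 8 promoters with negative interaction values (right) in each library, as log2 relative to Sham Veh; bars are 1 standard error of the counting of that library, and lines only connect the points of a gene. All 8 muscle promoters are lowest in TAC Veh, whereas all 8 on the right are higher in Sham TSA and TAC Veh than in Sham Veh and TAC TSA.

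TAC Veh was the outlying library in most strong promoters called higher. In 38 of the 46 (82.6%), it lay farthest from the median of the other 3 libraries, and on the low side. The share over all strong promoters is not given here, so this too is no result about the genes called. Median log2 ratios of the 46 were 0.76 for TSA in TAC and 0.04 for TSA in sham. For TAC over sham they were −0.58 with vehicle and 0.17 with TSA. All 46 were also called with loess scaling, and 5 with receptor scaling. The 46 also included the formin Fhod3 at 0.68, the zinc finger factor Casz1 at 0.69, sarcalumenin (Srl) at 0.67, the lipid droplet protein Plin4 at 0.70 and the water channel Aqp1 at 0.63. These 5 were picked from the 46 after their values were seen. The same TAC Veh count enters the interaction and the TAC ratio with vehicle, so a low TAC Veh count raises the first and lowers the second.

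Weak promoters called higher had another arrangement of libraries. In 476 of 854 (55.7%) the library farthest from the others was TAC TSA, on the high side, followed by a low Sham TSA in 192 and a low TAC Veh in 163. The share over all weak promoters is not given here, so this is no result about the genes called. In the weakest count class the median TSA ratio over all genes was 0.29 in TAC and −0.00 in sham. Of all 900 genes called higher, 353 stayed called with loess scaling. Spata46, a gene of sperm development, had 53.8, 35.7, 32.4 and 75.2 scaled counts, an interaction of 1.81 (0.97 to 2.65). Nrg3, a neuregulin ligand of the nervous system, had 46.5, 19.6, 27.5 and 45.1, an interaction of 1.96 (0.95 to 2.98). Here both TSA libraries moved apart, the sham one down and the TAC one up. Other promoters among the 15 called higher whose intervals lay farthest from 0 were Egr4, an immediate early type transcription factor, at 1.44, and Slc38a5, an amino acid transporter, at 1.51. Brinp1 and Dscaml1, both known from neurons, were at 1.76 and 1.45, and Ano7, of the anoctamin family, at 1.21. Gm829 at 1.41 and Mir6241 at 1.58 complete the weak ones of that group.

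**Figure D4:**
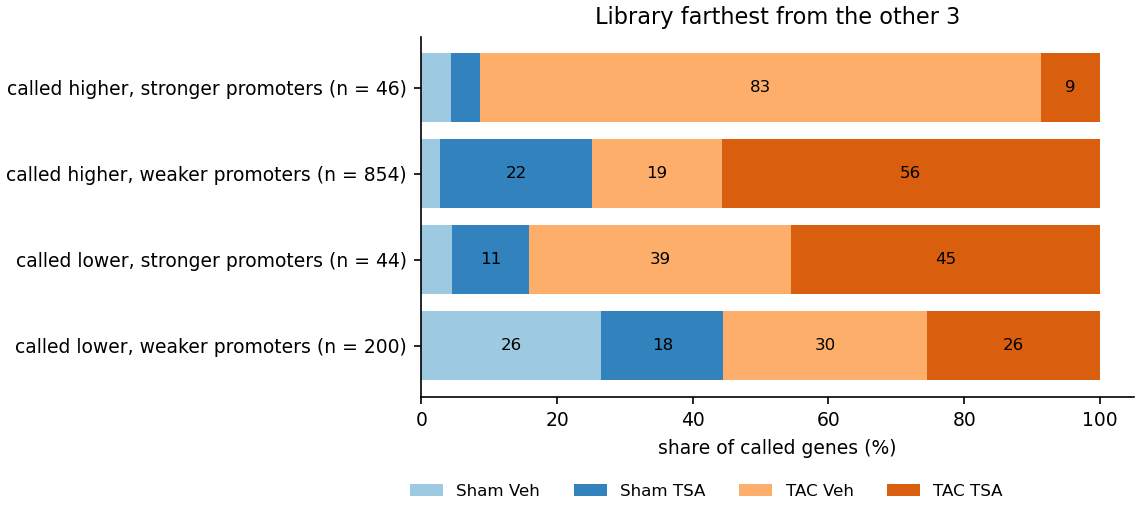
Share of called genes (%) for which each library lay farthest from the median of the other 3, for genes called higher and lower, above and under the median count. TAC Veh takes 82.6% of the strong promoters called higher, TAC TSA 55.7% of the weak ones, and the genes called lower are spread over the libraries. Calls are with TMM scaling, and the shares over all genes are not shown.

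Macrophage and other leukocyte markers had the most negative list, with 9 of 17 called lower, none higher and all 17 below 0. Its median was −0.68 (−0.74 with loess and −1.05 with receptor scaling), and 10 members were called with loess scaling. The list's medians were −0.34 for TSA in TAC and 0.31 for TSA in sham. C1qb, a chain of complement C1q made by macrophages, had 182, 250, 224 and 124 scaled counts. It was thus higher with TSA in sham and lowest with TSA in TAC, an interaction of −1.30 (−1.73 to −0.87). Ms4a6c, a membrane protein of macrophages, had 50.2, 110, 84.3 and 68.9, an interaction of −1.42 (−2.09 to −0.75). Ptprc, the pan-leukocyte phosphatase CD45, had 67.5, 105, 97.1 and 62.7, an interaction of −1.27 (−1.92 to −0.63).

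The remaining called leukocyte markers were C1qa at −0.96, cathepsin S (Ctss) at −0.95, the integrin Itgam at −0.83, the mannose receptor Mrc1 at −0.77, Adgre1 (F4/80) at −0.77 and the macrophage growth factor receptor Csf1r at −0.68. C1qc, the neighbour of C1qa and C1qb, was at −0.43 (−0.77 to −0.10), and neighbouring genes may share reads. Ccl12, a monocyte attracting chemokine, was at −1.29 (−1.91 to −0.67), with 59.3, 114, 102 and 80.2 scaled counts. P2ry12, a nucleotide receptor of microglia and some macrophages, was at −1.31 (−1.91 to −0.70), and Ly86, the partner of a toll-like receptor homologue, at −1.21 (−1.77 to −0.66). Gm13710, a gene of unstated role with 31.0 reads on average, was at −1.87 (−2.96 to −0.77). The leukocyte markers were low but not absent, their 17 promoters summing to 2760, 3374, 3358 and 2678 scaled counts. Lymphocyte markers did not follow, since none of 11 was called lower, Cd2 was called higher at 0.88 (0.25 to 1.52), and the median was 0.20 (0.03 with loess and −0.17 with receptor scaling). The part of the number of macrophages in these values was not tested.

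Serpina3n, an acute phase inhibitor of serine proteases, had 78.5, 151, 174 and 103 scaled counts, low in Sham Veh and high in TAC Veh. TSA went with a 1.92-fold higher level in sham and a 1.69-fold lower level in TAC, an interaction of −1.70 (−2.23 to −1.17). Its neighbour in the same gene cluster, Serpina3i, had 63.9, 97.2, 110 and 65.2, an interaction of −1.36 with an upper bound of −0.72, and paralogues of this family may share reads. Mir21a had 317, 505, 522 and 325, an interaction of −1.36 (−1.65 to −1.07), the most negative of the strong promoters. In Mir21a the low pair (Sham Veh and TAC TSA) and the high pair (Sham TSA and TAC Veh) were each nearly level. Mir223 had 36.5, 71.4, 67.6 and 35.1, and F630028O10Rik, whose transcript spans it, 35.6, 73.2, 57.8 and 27.6, the same arrangement at a low count. Their interactions were −1.91 (−2.75 to −1.08) and −2.11 (−3.00 to −1.21). All 5 stayed called with loess scaling, from −1.28 for Mir21a to −2.41 for F630028O10Rik.

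Crossed TSA ratios of this kind were the rule by sign and the exception by size. Among genes called lower 236 of 244, and among genes called higher 790 of 900, had TSA ratios of opposite sign in sham and TAC, a split that the difference itself favours. The TSA ratios were both at least 1.5-fold, with intervals excluding 1, and opposite in 6 of the genes called lower and 14 of those called higher.

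Matrix genes had negative values with 4 of 43 called lower and none higher, a median of −0.26 (−0.20 with loess and −0.63 with receptor scaling). With loess scaling 7 were called lower, and with receptor scaling 25. Thbs4, a thrombospondin of stressed heart and tendon, had 37.4, 75.8, 96.1 and 66.4 scaled counts, an interaction of −1.55 (−2.27 to −0.83). Postn, periostin, a product of activated fibroblasts, had 110, 114, 192 and 108, an interaction of −0.88 (−1.40 to −0.37). In sham the TSA ratio was 2.03-fold at Thbs4 and 1.03-fold at Postn, so Postn was high in TAC Veh alone. Svep1, a large adhesion protein, was at −0.77 (−1.21 to −0.34) and the protease inhibitor Timp1 at −0.70 (−1.38 to −0.02), a call lost with total count scaling and with an exact interval. Fibrillar collagen Col1a1 had 232, 269, 327 and 276 and an interaction of −0.46 (−0.80 to −0.12), short of the fold. Fibroblast markers had a median of −0.34 (−0.71 with receptor scaling), 1 of 12 called lower (Mfap5, a microfibril protein, at −0.62, −1.07 to −0.18), and 11 of 12 below 0. The summed fibroblast marker counts were 2275, 2406, 2755 and 2361.

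Runx1, a transcription factor of blood cells that stressed cardiomyocytes and fibroblasts also express, was high in TAC Veh alone. It had 335, 352, 530 and 271 scaled counts. The TSA ratio was 1.96-fold lower in TAC and 1.05-fold higher in sham, an interaction of −1.04 (−1.35 to −0.74). It was the only one of 18 Runx and fibroblast regulator genes to be called, and the list median was −0.19 (−0.57 with receptor scaling).

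Interferon-stimulated genes had 5 of 36 called lower, none higher and a median of −0.30 (−0.22 with loess and −0.67 with receptor scaling). Slfn2, a schlafen family regulator of immune cells, had 443, 519, 465 and 297 scaled counts, an interaction of −0.88 (−1.16 to −0.59). Irf9, the DNA-binding subunit of the interferon-activated factor ISGF3, had 494, 586, 553 and 414, an interaction of −0.67 (−0.92 to −0.41). In both genes TAC TSA was the lowest library and Sham TSA the highest. Rtp4 was at −0.69, the nucleic acid sensor Zbp1 at −0.72 and Ifit3 at −0.71. The viral response genes Rsad2 and Oas2 had values of 0.15 and 0.00, so the list was not uniform.

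A further strong promoter called lower was Bcl3, an atypical inhibitor protein of the NF-kappaB family, with 365, 506, 488 and 350 scaled counts and an interaction of −0.95 (−1.23 to −0.67). The membrane protein genes Tmem176a and Tmem176b, which are neighbours, were at −0.83 and −0.79. The adaptor Tifa was at −0.82, the RNA-editing deaminase Apobec1 at −0.85, the chemerin receptor Cmklr1 at −0.76 and the receptor kinase Axl at −0.61, picked after their values were seen. The call of Axl was lost with loess and with total count scaling. Of the 44 strong promoters called lower 25 stayed called with loess scaling, and all 44 with receptor scaling. TAC TSA was low in 20 and TAC Veh high in 17 of these 44. Among the proliferation genes Cdk1, Mki67 and Mcm3 were called lower at −0.66, −0.62 and −0.62, which was 3 of 27 cell cycle genes, with a list median of −0.15 (−0.52 with receptor scaling). Mcm3 lost its call with total count scaling. Myc, alone of 21 immediate early genes, was at −0.59 (−0.81 to −0.37), at the edge of the rule, and lost its call with total count, DESeq2 and loess scaling.

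**Figure D5:**
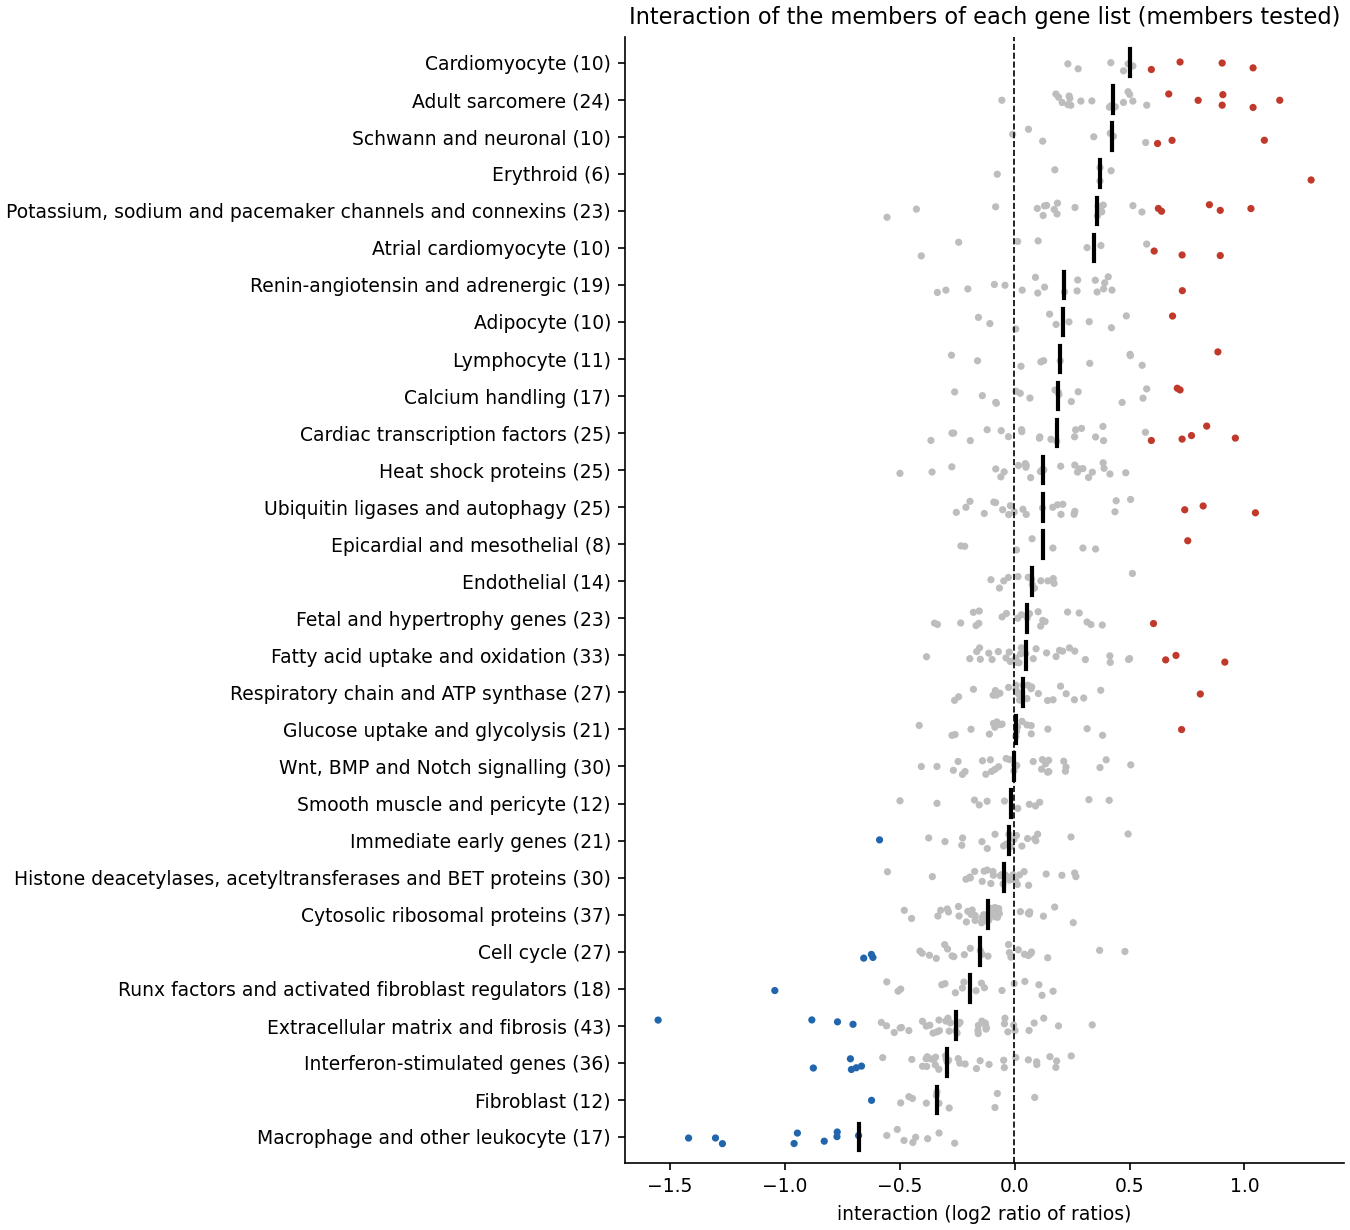
Interaction (log2 ratio of ratios) of every tested member of 30 gene lists, ordered by list median (black bars); red points are called higher, blue lower, and the dashed line is the median of all genes. Cardiomyocyte and sarcomere lists lie at the top with medians of 0.50 and 0.43 (0.13 and 0.06 with receptor scaling), and the leukocyte list at the bottom with −0.68 (−1.05 with receptor scaling).

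The fetal gene programme, genes that the overloaded heart is known to switch on again, had a median of 0.05 (−0.32 with receptor scaling), with 1 of 23 called. That gene was Ankrd2, a stretch-responsive muscle protein, called higher at 0.60 (0.25 to 0.96). The natriuretic peptide genes Nppa and Nppb were at 0.31 (−0.23 to 0.86) and −0.05 (−0.51 to 0.40), and the fetal myosin Myh7 at 0.05 (−0.32 to 0.42). Myh7 had 198, 214, 250 and 281 scaled counts, so that it lay highest in TAC TSA and lowest in Sham Veh. Myh6 was also highest in TAC TSA, but lowest in TAC Veh. Skeletal actin, Acta1, had 103, 93.7, 177 and 127 scaled counts and an interaction of −0.35 (−0.87 to 0.17).

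HDACs, acetyltransferases and bromodomain proteins, the machinery that TSA acts on, had 0 of 30 called in either direction, with values from −0.55 (Kat2b) to 0.27 (Hdac6) and a median of −0.05. Inpp5f, a phosphoinositide phosphatase that HDAC2 is known to repress in the heart, had 250, 294, 281 and 303 scaled counts, an interaction of −0.13 (−0.47 to 0.21). Ribosomal protein genes (0 of 37 called, median −0.11), heat shock proteins (0 of 25, median 0.12), and the Wnt, BMP and Notch list (0 of 30, median −0.00) also had no call. Of 19 renin-angiotensin and adrenergic genes Agt, angiotensinogen, alone was called, at 0.73 (0.28 to 1.18). With receptor scaling the medians of these 5 lists were all below 0, from −0.49 to −0.16.

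Endothelial (0 of 14 called, median 0.08) and smooth muscle and pericyte markers (0 of 12, median −0.02) lay near the bulk. Schwann and neuronal markers had a median of 0.42 (0.30 with loess and 0.05 with receptor scaling). Among them the noradrenaline enzymes Th at 0.62 and Dbh at 0.68 were called higher, and neither stayed called with loess scaling. Atrial markers, among them Kcnj3 and Tbx5, had a median of 0.34 (0.20 with loess and −0.03 with receptor scaling). Single calls came from the erythroid (Epb42, 1.29), adipocyte (Cfd, 0.69) and epicardial lists (Lrrn4, 0.75), all with weak promoters.

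MicroRNA genes are mostly weak in this table, with 186 of 944 at or above the median count. Called higher were 88, 9.32% of them, and called lower 10, 1.06%, against 4.42% and 1.2% over all genes. Over all genes under the median count the shares were 8.39% and 1.97%, so the 9.32% is near that of weak promoters. Of the 186 stronger microRNA genes 3 were called higher and 4 lower. Copies with identical counts, such as those of Mir467a, are each counted. Besides Mir21a and Mir223, the genes called lower included Mir142, a blood cell microRNA, at −0.89 (−1.40 to −0.38), and Mir195a and Mir497b, of one cluster, at −0.59 and −0.63, both lost with loess scaling. Several muscle microRNAs were called higher. Mir1a-2 had 300, 323, 154 and 296 scaled counts and an interaction of 0.84 (0.47 to 1.20), and Mir1b, which lies at the same place, 0.82. Mir208a, which lies within Myh6, was at 0.70 (0.26 to 1.13), and Mir499 at 0.62 (0.18 to 1.06), a call lost with loess scaling. Mir208b was lowest in TAC Veh, with an interaction of 0.82 (0.44 to 1.19) and 0.83 with loess scaling. Counts at a microRNA gene cannot be told apart from those of a host gene or neighbour whose promoter overlaps.

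Several genes have more than 1 promoter in the table, and these were compared within the gene. There a factor common to a whole library cancels, but a trend with the count does not. The median interaction was 0.18 at mean counts of 88 to 133 and −0.07 at 423 to 498.75. In 1356 genes with at least 2 distinct promoters of mean count 100 or more, the median spread between promoters was 0.05, and 3 genes differed by 1 or more. Promoters counted as distinct need only have counts that are not identical, so they may overlap and share reads. The 0.05 is therefore no measure of agreement between separate promoters. None of 1759 genes with distinct promoters had one called higher and another called lower. Mitf, a transcription factor of melanocytes and heart muscle with tissue-specific start sites, had one promoter at −0.40 (−0.66 to −0.13) and others at 0.78 (0.34 to 1.22) and 0.70 (0.14 to 1.26). The raw counts of the first were 496, 583, 505 and 345, and those of the second 185, 228, 110 and 178. The first was lowest in TAC TSA and the second in TAC Veh. Kat2b, an acetyltransferase, had −0.55 at its stronger promoter and 0.62 at its weaker one. Evl, an actin regulator, ranged from −0.64 to 0.53 over 3 promoters, Filip1l was at 0.70 and −0.28, and Retreg1, an endoplasmic reticulum autophagy receptor, ranged from −0.32 to 0.66 over 5. In Mitf, Kat2b and Filip1l the promoter with the most reads had the lowest value, the direction of the trend with the count. In Evl and Retreg1 it did not. The part of that trend in these differences was not tested.

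Of 900 genes called higher 173 (19.2%) had an adjacent gene called higher, against 8.49% of the 20364 tested genes with a place in the reference. Of 244 called lower 33 (13.5%) had an adjacent gene called lower, against 2.31% of all. Among the genes called, 854 higher and 200 lower were under the median count, where calls are more frequent. A share for weak promoters alone is not given here. Adjacent promoters may also share reads, so these shares do not count independent neighbours. Runs of 3 or more adjacent called genes numbered 10 for higher and 2 for lower. Myh6, Mir208a and the antisense transcript Mhrt formed one run, and the values of Myh6 and Mhrt, 0.90 and 0.93, are not independent. Actc1 and its neighbour C130080G10Rik (1.01, 0.69 to 1.34) were a further pair. The runs called lower were the receptor families Cd300lb, Cd300ld, Cd300c2 and Cd300ld3, and Clec4a1, Clec4a3 and Clec4b1, both known from myeloid cells.

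Sequence features were described for 12517 tested genes with a single RefSeq promoter, with chromosome 18 left out. A CpG ratio (observed over expected) of at least 0.6 was found in 56.5% of all of them, 18.3% of those called higher and 27.2% of those called lower. In genes at or above the median count the shares were 81.8%, 28.0% (of 25 called higher) and 57.1% (of 21 called lower). The PU.1 letters printed in Ctss were in 27.2% of promoters called lower, 13.0% of those called higher and 13.4% of all. An ISRE was in 10.9% of those called lower, 2.65% of those called higher and 3.18% of all. All 16 ISRE matches among genes called lower were at promoters under the median count. Under that count the PU.1 letters were in 27.8% of those called lower, 13.3% of those called higher and 14.0% of all. For the ISRE these shares were 12.7%, 2.78% and 3.48%. The TATA letters of Myh6 and Actc1 were in 7 of 25 strong promoters called higher (28.0%) and 6.13% of all strong promoters. A CArG box was in 1.36% of all promoters, 0.756% of those called higher and 0.680% of those called lower. In the same order, a MEF2 site was in 1.99%, 3.02% and 2.04%. The TEAD letters were in 13.0%, 16.6% and 17.7%, and the GATA letters in 7.94%, 9.64% and 10.9%. Among promoters under the median count, TEAD was in 14.9%, 16.5% and 18.3%, and GATA in 11.3%, 9.72% and 11.9%. These shares compare letters in a window and differ with CpG content and count, which differ between the groups.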

How the data were processed

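The deposited table gives, for every RefSeq ID, the authors' raw read count at its promoter in 1 library per group, with no normalisation. From the submitters' processing notes come MACS 1.4.1, BWA 0.5.9 and mm9 as the build. What each tool did, how promoters were bounded and counted, and how duplicates and input were treated is not given in the sources used here. Lists of regions, 6 in all, were not used, because their mm9 positions cannot be joined to a table without coordinates. Of 31594 IDs 31111 (98.5%) matched a symbol of GRCm38.p6, used for names and RefSeq sequences only, and the 483 others held 1.13% of counts and were left out.

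Counts were scaled by TMM (edgeR 4.0.16, limma 3.58.1, R 4.3.3) and each interaction was computed with a normal 95% interval on the log2 scale from 4 Poisson counts (Python 3.11.15, numpy 2.4.6, pandas 2.3.3, scipy 1.17.1, matplotlib 3.10.9). With 4 libraries in 4 groups there are 0 residual degrees of freedom, so no p-value is given. The computation was tested on simulated data. Alternatives were other scalings (total count, DESeq2 1.42.0 size factors, loess with a span of 0.3, receptor promoters), count minimums of 10, 100 or none (0.5 added), a pseudocount of 2, every distinct promoter, calls at a smaller fold, at 2-fold or with no fold minimum, and an exact conditional interval. IDs of a gene with identical counts were taken as 1 promoter.

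Genes were named by rule: the 15 called in each direction whose interval bound nearest 0 was farthest from it, up to 5 called members of each of 30 lists by the same bound, 5 per direction with opposite TSA ratios, a set of 17 heart genes whatever their value, and the 5 genes with the largest difference between promoters. Others are said in place, or were added as neighbours or members of the same families, after values were seen. Some genes that the rule names are not reported here. The promoters studied, the lists and the markers were chosen with earlier results of these data known.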

Additional observations from a re-analysis of the deposited data

Results flagged for a closer look

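In 10 named genes TSA went with opposite differences in sham and TAC, each at least 1.5-fold with its interval for counting error excluding 1; with 1 library per group this difference was not tested. The interaction was positive, with lower levels under TSA in sham and higher levels in TAC, in Nrg3 (1.96), Spata46 (1.81), Gm7609 (1.58), Dscaml1 (1.45) and Kcnk18 (1.41), all promoters with mean counts under 65. It was negative, with the reverse arrangement, in F630028O10Rik (−2.11), Mir223 (−1.91), Serpina3n (−1.70), Mir21a (−1.36) and Serpina3i (−1.36). F630028O10Rik spans Mir223, and Serpina3n and Serpina3i belong to one gene cluster, so these 5 values are not 5 independent observations. Of the 10, Mir21a alone had a mean count above the median of all genes.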

How the results depend on the processing

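The counts of genes called higher and lower, 900 and 244, changed with the scaling, to 374 and 454 with loess scaling and 99 and 3508 with receptor promoter scaling. They came to 396 and 126 with a mean count of at least 100, 222 and 39 at 2-fold, 1423 and 1239 with a smaller fold minimum, and 1588 and 1775 with no fold minimum. In genes at or above the median count, a choice made after seeing the data, they were 46 and 44. Total count scaling (1040 and 191), DESeq2 size factors (933 and 231), a minimum of 10 (1015 and 289), no filter (1017 and 291), a pseudocount of 2 (815 and 230), every distinct promoter (984 and 273) and subtraction of the receptor background, also chosen after seeing the data (743 and 326), stayed within 1.5 times. Of the 900 and 244 genes, 353 and 221 were also called with loess scaling, 640 and 229 with the background subtracted, and 99 and 244 with receptor scaling. Of 94 named genes with a call, 87 kept it with loess scaling, where Cfd, Dbh, Kcnd2, Mef2c, Myc and Th were among those that lost it, and 36 lost it with receptor scaling. None of these 94 changed sign under any alternative run. No paired analysis was possible because each group has 1 library, and leaving out a library leaves no interaction. Depth limits weak promoters: the median standard error was 0.45 in the weakest of 10 count classes and 0.11 in the strongest. The causes of these changes were not tested.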
